A study of Mus musculus with 6 samples.

Results

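The regions described here are 439 bins of 5 Mb, cut from position 0 along the 19 autosomes of the mouse genome (build GRCm38). Each gene was placed in a bin by the smallest start in its deposited annotation, and genes with a mean of at least 2 CPM (counts scaled to the library total) over the 6 libraries were kept. That left 10915 of 37085 autosomal genes, in 491 bins, of which the 439 with at least 5 kept genes were used; 52 bins with fewer were left out. A bin held between 5 and 113 kept genes, with a median of 19. The value of a bin is the median log2 ratio of its genes to wild type minus the median of all kept genes, and is called its shift. The bins were defined by position and expression level, but chromosomes 1, 3, 8, 11 and 15 were singled out by their shifts in these same libraries, so their shifts against wild type are given as a description with no test.

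The libraries were RNA-seq of KP2 cells, a pancreatic cancer line derived from a KPC mouse (a genetically engineered model of pancreatic cancer) on the C57BL/6J background and kept below 10 passages. There were 3 groups of 2 libraries: wild-type KP2 cells, cells in which Irak4 had been knocked out with lentiviral CRISPR guides (KO), and KO cells with a rescue (rescue). The labels do not describe the rescue construct, and do not say whether the KO and rescue cells were clones or pools or whether the 2 libraries of a group came from separate cultures. All cells, wild type included, therefore carry the alleles of the KPC tumour, and the KO and rescue cells share the knockout.

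Cancer cell lines commonly carry gains and losses of whole chromosomes or of chromosome segments. A change in copy number moves the RNA of many neighbouring genes in the same direction, by less than a regulated gene often moves, so it appears in RNA-seq as a small shift of a regional median and not as a change of single genes. Regulation that acts on clustered genes or on large chromatin domains also moves neighbouring genes together. DNA was not measured in these samples, so a shift below is a property of RNA levels, and copy number and regional regulation cannot be told apart.

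The sequences below are shown because the results turn on 2 places: the targeted gene, which lies on the chromosome with the lowest shift, and the position on chromosome 8 where the level of the bins stepped up. Each is the stretch of 250 bases upstream of a gene's start from RefSeq (GRCm38.p6), printed 5′ to 3′ on the strand of the gene. Capitals mark CG, which reads the same on both strands and occurs at least once in 92.1% of the 32851 upstream windows of this length, with a median of 6 per window.
Irak4, the targeted gene, chr15:94543410-94543659, plus strand: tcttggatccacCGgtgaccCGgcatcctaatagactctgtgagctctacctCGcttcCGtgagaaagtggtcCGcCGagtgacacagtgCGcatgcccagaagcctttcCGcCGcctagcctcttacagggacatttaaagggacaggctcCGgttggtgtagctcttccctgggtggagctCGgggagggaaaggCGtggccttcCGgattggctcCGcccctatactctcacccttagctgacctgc
Tmem192, the last established kept gene before the chromosome 8 step, chr8:64946935-64947184, plus strand: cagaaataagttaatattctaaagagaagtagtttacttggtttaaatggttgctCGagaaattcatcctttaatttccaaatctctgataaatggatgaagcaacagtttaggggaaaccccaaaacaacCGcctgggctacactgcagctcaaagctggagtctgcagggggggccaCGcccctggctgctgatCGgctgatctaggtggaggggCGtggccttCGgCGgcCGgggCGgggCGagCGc
Tma16, the first established kept gene after it, chr8:66486531-66486780, minus strand: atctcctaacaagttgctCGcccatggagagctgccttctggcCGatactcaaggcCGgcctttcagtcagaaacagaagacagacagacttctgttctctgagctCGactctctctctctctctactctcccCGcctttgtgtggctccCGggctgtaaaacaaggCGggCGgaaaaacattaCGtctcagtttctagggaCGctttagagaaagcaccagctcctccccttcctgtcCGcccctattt
The Irak4 window held 14 CG, a number reached by 29.4% of windows. Tmem192 and Tma16 held 11 each, reached by 35.6%. The RefSeq start of Irak4 lies 17 bases after the start in the deposited annotation, so the end of that window falls inside the deposited gene.

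Library totals lay between 7605328 and 11505983 counts, and kept autosomal genes took 94.5% to 95.6% of them. Of the 9 ductal and epithelial markers, 6 had a mean of at least 1 CPM. The summed level of all 9 was 6439 to 6631 CPM in wild type, 3998 to 4132 in KO and 4757 to 5526 in rescue. The members did not move alike: Krt8, Krt18, Krt19 and Sox9 were higher in both rescue libraries than in both KO libraries, while Cdh1 and Muc1 were lower. Cdh1 was at 344 and 379 CPM in wild type, 183 and 244 in KO, and 142 and 96.4 in rescue. Epcam was at 0.11 CPM or less in every library. The acinar list summed to at most 2.16 CPM, the fibroblast list to at most 3.29, the immune list to at most 4.85 and the endothelial list to at most 38.3; Cpa1, Pnlip, Amy2a5, Dcn, Lum, Cd3e and Lyz2 had no count in any library. Of the 3 endothelial markers Cdh5 alone was higher outside wild type, at 2.82 and 3.49 CPM in wild type against 14.5 to 38.0 in the KO and rescue libraries; Kdr was at 1.46 and 1.60 CPM against at most 0.13, and Pecam1 was at 0.26 or less in every library. The summed level was 4.39 and 5.09 CPM in wild type against 14.6 to 38.3, and its part in any shift was not tested. The epithelial sum was lower in KO and rescue than in wild type, and its part was not tested either.

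Irak4 itself (ENSMUSG00000059883), the kinase that relays Toll-like and interleukin-1 receptor signals, lies at chr15:94543643-94581815 on the plus strand. Its level was 35.9 and 36.3 CPM in the wild-type libraries, 21.2 and 22.8 in KO, and 495 and 209 in rescue. The 3 groups did not overlap, and the 2 rescue libraries differed more than any other pair. The KO difference was -0.84 on the log2 scale (SE 0.33) and did not pass edgeR's quasi-likelihood test with Benjamini-Hochberg adjustment (adjusted p = 0.057); guides that cut DNA need not lower the RNA. The rescue difference from wild type was 3.22 (SE 0.30, adjusted p = 2.1e-05 in the same edgeR fit). Has2, the hyaluronan synthase on the same chromosome at chr15:56665627-56694539, was at 178 and 167 CPM in wild type, 38.7 and 22.7 in KO, and 109 and 161 in rescue. It fell by 2.59 in KO (SE 0.22, adjusted p = 6.02e-06, edgeR), against a shift of -0.21 for the 28 kept genes of its bin.

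Across all 439 bins, shifts ranged from -0.69 to 0.44 in KO and from -0.40 to 0.30 in rescue. The median over all kept genes, which was subtracted, was 0.15 in KO and 0.08 in rescue, so a shift of 0 stands for a gene that moved with that median. The SD of the bins was 0.18 in KO and 0.12 in rescue. Between the 2 libraries of a group it was 0.05 in wild type, 0.06 in KO and 0.08 in rescue. The spread of the bins between groups was thus wider than between libraries of one group. With separate wild-type libraries on each side, KO library 1 against wild-type library 1 and KO library 2 against wild-type library 2 had Pearson's r = 0.80 and Spearman's rank correlation = 0.79 over the 439 bins, with the same sign in 349. The same measure in rescue was r = 0.59 and a rank correlation of 0.57, with the same sign in 303. These points share genes and library preparation within a group, and the values are descriptions.

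A bin was counted as shifted when it lay 0.2 or more from 0 and its libraries did not overlap between the groups. In KO 32 bins were shifted up and 69 down, which is 7.29% and 15.7% of all bins; in rescue there were 16 up (3.64%) and 35 down (7.97%). Non-overlap alone, with no size, held for 33.5% of bins above and 41.7% below wild type in KO, and for 30.8% and 32.6% in rescue. These shares come from the contrasts that singled out the chromosomes, and are the level against which the counts for each chromosome stand. At the limit of 5 genes, the 7 bins that just entered had KO shifts of -0.11 to 0.29, and the 15 bins with 4 genes that were left out ranged from -0.91 to 0.95. Bins with few genes scattered more: the SD of KO shifts was 0.21 in the 78 bins of 5 to 9 genes and 0.13 in the 71 bins of 40 to 113.

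At the level of whole autosomes, from the group means, chromosome 15 had the lowest shift and chromosome 3 the next lowest in both KO and rescue, while chromosome 8 had the highest and chromosome 11 the next. Chromosome 1 was the third lowest in KO and the fourth in rescue. Single libraries did not all keep this order: chromosome 3 lay below chromosome 15 in KO library 1 and rescue library 2, and in KO library 2 chromosome 1 (-0.11) lay below chromosome 3 (-0.10). The second place of chromosome 3 in KO thus rested on KO library 1. In rescue library 2 chromosomes 4, 9 and 14 lay above chromosome 11. A chromosome was described as shifted whole where at least 80% of its bins lay on the side of its median. Chromosomes 3 and 15 met this in both groups, chromosome 12 in KO only (17 of 21 bins, with a median of -0.03), chromosome 19 in rescue only (11 of 13 bins, with a median of -0.05), and chromosomes 1, 8 and 11 in neither. The 2 wild-type libraries differed by at most 0.02 on any of the 19 autosomes, but their values mirror each other because the ratio is taken to their mean.

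**Figure D1:**
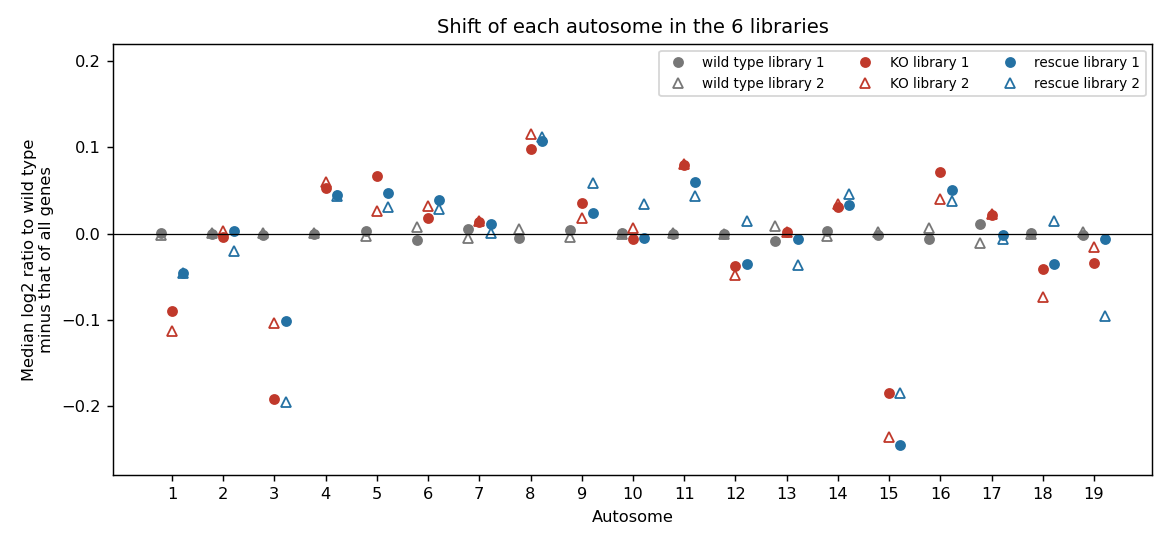
Shift of each of the 19 autosomes (vertical axis, log2, median over its kept genes minus that of all kept genes) in each library; circles are library 1 and triangles library 2 of wild type (grey), KO (red) and rescue (blue). Chromosome 15 (-0.18 and -0.24 in KO) lies low in every KO and rescue library, chromosome 3 (-0.19 and -0.10) is below chromosome 1 in KO library 1 and not in library 2, chromosome 8 (0.10 and 0.12) highest, and the order of libraries 1 and 2 on chromosomes 3 and 15 is opposite in KO and rescue.

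Chromosome 15 was lower nearly throughout. Over its 455 kept genes the shift was -0.18 and -0.24 in the KO libraries and -0.25 and -0.18 in the rescue libraries (mean -0.21 ± 0.04 and -0.21 ± 0.04, SD, n = 2 each). All 4 lay below both wild-type libraries. From the group means the shift was -0.20 in KO and -0.22 in rescue. In KO 317 of the 455 genes lay below 0 (69.7%), and in rescue 363 (79.8%). The interquartile range of its genes ran from -0.55 to 0.05 in KO and from -0.41 to -0.05 in rescue, so single genes went either way.

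Of the 18 bins of chromosome 15, 17 were below 0 in KO and 18 in rescue. In each group 17 bins had both libraries below both wild-type libraries, beside 41.7% of all bins in KO and 32.6% in rescue. In each group 10 were shifted down by 0.2 or more, beside 15.7% of all bins in KO and 7.97% in rescue. None was shifted up in either group. The longest uninterrupted run of bins below 0 was 17 in KO, from 5 to 105 Mb, and 18 in rescue, from 0 to 105 Mb. The exception in KO was the first bin, 0 to 5 Mb, with 5 genes and a shift of 0.05. The most gene-rich bin, 75 to 80 Mb with 102 genes, was at -0.17 and -0.19 in the KO libraries and -0.26 and -0.24 in rescue. Of its genes 73 were below 0 in KO and 88 in rescue.

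Within chromosome 15 the bins from 60 to 75 Mb were lower still in KO. The 26 genes of these 3 bins had shifts of -0.39 and -0.52 in the KO libraries, and -0.37 and -0.20 in the rescue libraries. The 127 genes before them had -0.15 and -0.21 in KO, and the 302 genes after them -0.19 and -0.23. The lowest bin, 65 to 70 Mb with 8 genes, had -0.40 and -0.62 in KO and -0.37 and -0.17 in rescue. Its most abundant gene was Ndrg1, a stress- and hypoxia-responsive gene, at 756 and 749 CPM in wild type, 312 and 266 in KO, and 406 and 710 in rescue. Ndrg1 fell by 1.5 in KO (SE 0.20, adjusted p = 0.000127, edgeR); rescue library 2 was close to wild type and library 1 was not. Efr3a, which helps to anchor a lipid kinase at the plasma membrane, fell by 0.40 in KO (SE 0.10, adjusted p = 0.0060, edgeR; 0.072 without KO library 2). Khdrbs3, an RNA-binding protein, went the other way in the same bin: it was at 40.9 and 46.2 CPM in wild type, 104 and 108 in KO, and 85.4 and 96.9 in rescue, and rose by 1.16 in KO (SE 0.10, adjusted p = 7.28e-06, edgeR). Khdrbs3 was picked because its KO ratio went farthest against the bin, so its KO p-value is a description.

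Myc, the transcription factor at chr15:61985341-61990374, lies in the neighbouring bin of 60 to 65 Mb. It was at 219 and 225 CPM in wild type, 158 and 134 in KO, and 202 and 230 in rescue. Both KO libraries were below all others, and rescue overlapped wild type. Myc fell by 0.73 in KO (SE 0.10, adjusted p = 0.000183) and rose by 0.63 in rescue against KO (SE 0.10, adjusted p = 0.0040, both edgeR; 0.063 for the latter without KO library 2), while its bin was at -0.43 in KO and -0.24 in rescue. Acvr1b, an activin receptor near the end of the chromosome, was at 167 and 158 CPM in wild type, 108 and 108 in KO, and 101 and 122 in rescue. Both groups lay below wild type, by -0.72 in KO (SE 0.10, adjusted p = 0.000168) and -0.60 in rescue (SE 0.10, adjusted p = 0.0016, both edgeR).

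The bin that stood above 0 in KO, 0 to 5 Mb, held genes that moved in opposite directions. Selenop, a secreted selenium carrier, was at 432 and 492 CPM in wild type, 535 and 737 in KO, and 331 and 177 in rescue. Its KO libraries were above and its rescue libraries below wild type. Oxct1, an enzyme of ketone body use, rose by 0.50 in KO (SE 0.08, adjusted p = 0.000416, edgeR). Ghr, the growth hormone receptor, was at 372 and 361 CPM in wild type, 120 and 120 in KO, and 199 and 318 in rescue, and fell by 1.74 in KO (SE 0.17, adjusted p = 1.72e-05, edgeR).

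Since Irak4 lies on chromosome 15, its genes were split at the targeted gene. The 355 genes that start before it had shifts of -0.18 and -0.23 in the KO libraries and -0.26 and -0.19 in rescue. The 99 genes after it had -0.19 and -0.27 in KO, and -0.21 and -0.15 in rescue. From the group means the values were -0.20 before and -0.20 after in KO, and -0.23 before and -0.16 after in rescue. The shift was thus present on both sides of the gene; the difference between the sides was not tested.

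In edgeR's test 182 of the 455 chromosome 15 genes passed as lower in KO and 57 as higher, where 23.6% and 24.9% of all kept genes passed. In rescue 131 passed as lower (28.8%) and 15 as higher (3.30%), where 11.8% and 10.9% of all kept genes did. Genes on this chromosome were chosen for this contrast, so nothing is read from those counts. Genes of lower expression, with a mean of 0.5 to under 2 CPM, were not used to form the bins. The 73 such genes on chromosome 15 had a median shift of -0.25 in KO and -0.22 in rescue. The same measure was -0.05 and -0.22 on chromosome 3, -0.12 and -0.08 on chromosome 1, 0.20 and 0.09 on chromosome 8, and 0.20 and 0.11 on chromosome 11. Chromosomes 14 (-0.21) and 6 (-0.19) were nearly as low as chromosome 15 in KO, although their kept genes lay above 0. Chromosome 12 was the highest of all in both groups (0.26 in KO and 0.25 in rescue), although its kept genes were at -0.03 and -0.01. In rescue chromosomes 10 (0.18) and 13 (0.13) also lay above chromosomes 8 and 11. Over all autosomes the bins of these sparse genes followed the kept genes only weakly (r = 0.12 in KO and 0.21 in rescue over 252 bins with at least 3 of them), which is no finding at this depth.

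Chromosome 3 was also lower over most of its length, but its libraries spread widely. Over its 566 kept genes the shift was -0.19 and -0.10 in the KO libraries and -0.10 and -0.20 in the rescue libraries (mean -0.15 ± 0.06 and -0.15 ± 0.07, SD, n = 2 each). All 4 lay below wild type. KO library 1 and rescue library 2 were the low ones. With KO library 1 left out the KO shift was -0.10 and with library 2 left out -0.19, and in rescue it was -0.10 without library 2 and -0.20 without library 1. In KO 361 genes lay below 0 (63.8%), and in rescue 409 (72.3%).

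This disagreement within groups was the widest of any autosome in both KO and rescue. Between the 2 wild-type libraries the 19 autosomes differed with an SD of 0.01 and a range of -0.02 to 0.02. Between the KO libraries the SD was 0.03, with chromosome 3 highest (library 2 minus library 1, 0.09) and chromosome 15 lowest (-0.05). Between the rescue libraries it was 0.04, with the same chromosomes at the opposite ends: chromosome 15 highest (0.06) and chromosome 3 lowest (-0.09). On chromosome 3 library 2 was the higher in 22 of 27 bins in KO, in 3 of 27 in rescue and in 16 of 27 in wild type, where over all 439 bins it was the higher in 46.9%, 55.1% and 51.9%. The library numbers have no order, and the difference was not tested.

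**Figure D2:**
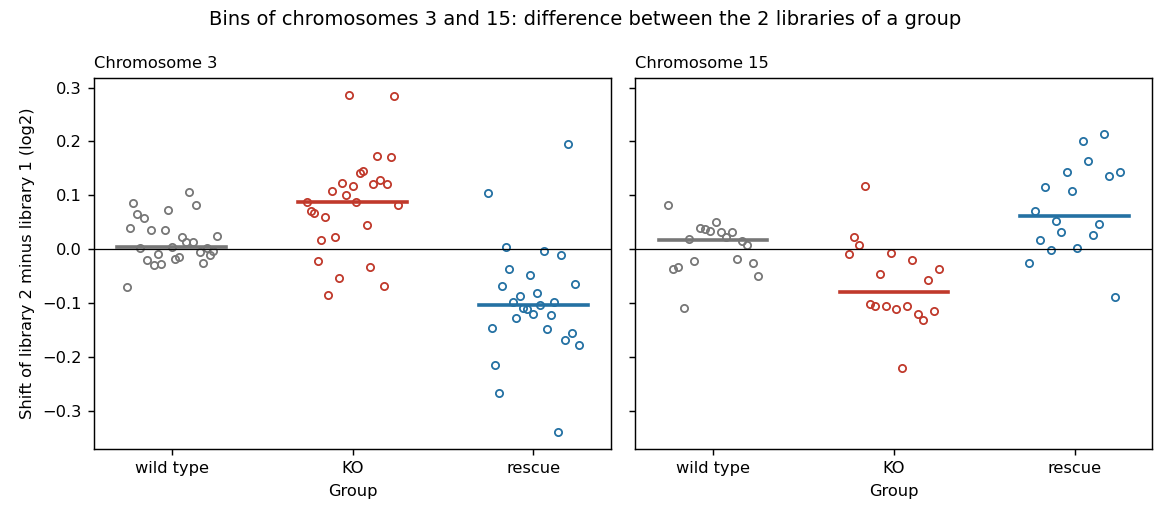
Shift of library 2 minus that of library 1 (log2) for each bin of chromosomes 3 (27 bins) and 15 (18 bins), in wild type (grey), KO (red) and rescue (blue), in order along the chromosome, with the median as a line. On chromosome 3 the KO bins lie mostly above 0 (library 2 higher in 22 of 27) and the rescue bins mostly below (higher in 3 of 27).

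Of the 27 bins of chromosome 3, 23 were below 0 in KO and 25 in rescue. In KO 10 bins were shifted down by 0.2 or more and in rescue 7, beside 15.7% and 7.97% of all bins. None was shifted up in either group, beside 7.29% of all bins in KO and 3.64% in rescue. Fitting 2 levels placed a step at 30 Mb in both groups: the 40 genes before it had shifts of -0.09 and 0.01 in KO and -0.06 and -0.04 in rescue, and the 525 genes after it -0.20 and -0.11 in KO and -0.10 and -0.20 in rescue. That step took away 5.08% of the spread between bins in KO and 15.7% in rescue, and its position in KO was 140 Mb without KO library 2 or with a mean CPM of at least 5, and 130 Mb with bins of 2.5 Mb. From 30 to 160 Mb all 23 bins were below 0 in rescue and 20 in KO. Mecom, a zinc finger transcription factor, was the last established gene before this position and Mynn, another zinc finger gene, the first after it. Neither passed edgeR's test in KO (0.12, SE 0.11, adjusted p = 0.37 for Mecom and -0.11, SE 0.11, adjusted p = 0.46 for Mynn).

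The lowest bin of chromosome 3 in KO, 120 to 125 Mb with 17 genes, had -0.59 and -0.46 in the KO libraries and -0.15 and -0.25 in rescue. The KO libraries were the lowest and did not overlap the rescue libraries. It holds F3, tissue factor, which starts blood coagulation: F3 was at 578 and 554 CPM in wild type, 113 and 143 in KO, and 174 and 218 in rescue. F3 fell by 2.27 in KO (SE 0.13, adjusted p = 4.73e-07, edgeR). Cnn3, an actin-binding calponin and the most abundant established gene of the bin by its mean over the 6 libraries, was at 317 and 341 CPM in wild type, 297 and 303 in KO, and 352 and 314 in rescue. It fell by 0.26 in KO (SE 0.08, adjusted p = 0.024, edgeR), a call lost without any 1 of the wild-type or KO libraries (adjusted p 0.070 to 0.17). Gclm, a subunit of the enzyme that starts glutathione synthesis, rose by 0.32 in the same comparison (SE 0.12, adjusted p = 0.039, edgeR), and lost the call without KO library 2 (0.32), wild-type library 1 (0.21) or wild-type library 2 (0.096).

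The next bin, 125 to 130 Mb with 15 genes, was the highest of the chromosome in KO and the one where the libraries disagreed most. It had 0.06 and 0.24 in the KO libraries, and 0.03 and -0.31 in the rescue libraries. Sec24b, a coat protein of vesicles leaving the endoplasmic reticulum, fell by 0.51 in KO (SE 0.08, adjusted p = 0.000372, edgeR). Elovl6, a fatty acid elongase, was at 148 and 164 CPM in wild type, 202 and 210 in KO, and 180 and 122 in rescue. Enpep, a membrane aminopeptidase, was at 12.5 and 14.1 CPM in wild type, 3.22 and 4.92 in KO, and 2.68 and 2.5 in rescue, and fell by 1.87 in KO (SE 0.22, adjusted p = 5.13e-05, edgeR).

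**Figure D3:**
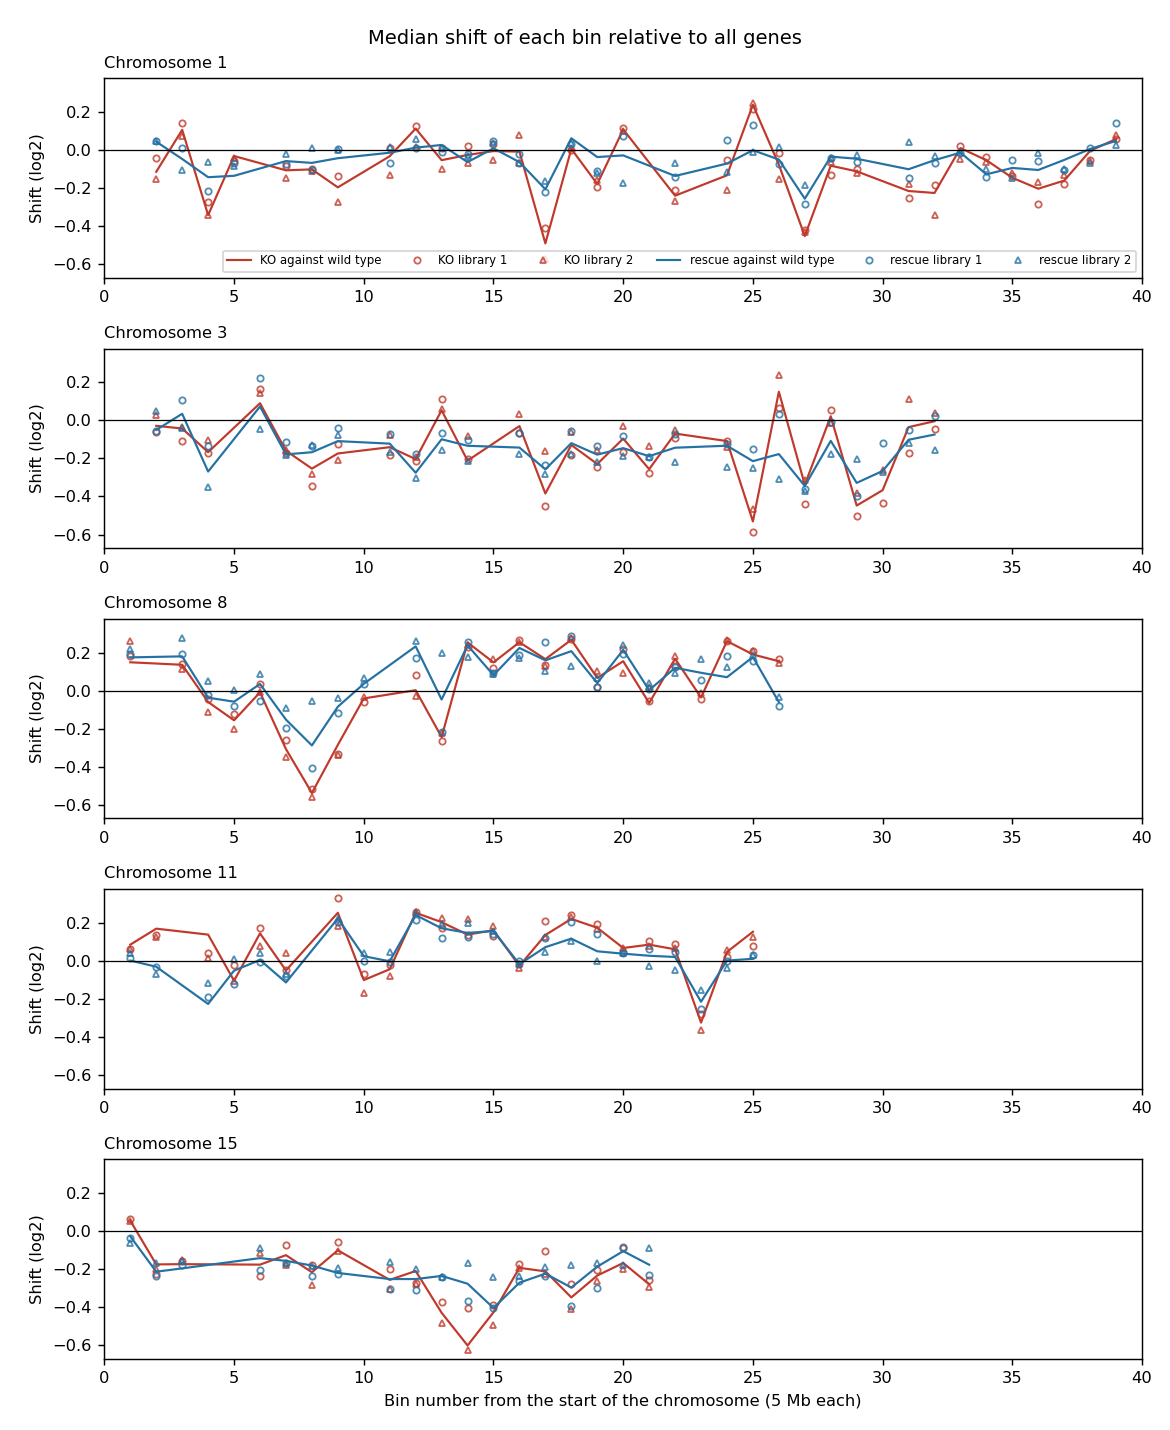
Shift (log2) of each eligible bin of chromosomes 1, 3, 8, 11 and 15 against its number from the chromosome's start; lines are the group means of KO (red) and rescue (blue) against wild type, circles library 1 and triangles library 2. Chromosome 15 is below 0 in 17 of 18 bins in KO and chromosome 8 climbs after bin 13, where its fitted step lies.

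Chromosome 8 was shifted up over part of its length and not over the rest. Over its 647 kept genes the shift was 0.10 and 0.12 in the KO libraries and 0.11 and 0.11 in the rescue libraries, all above wild type (mean 0.11 ± 0.01 and 0.11 ± 0.003, SD, n = 2 each). Only 14 of its 24 bins were above 0 in KO and 17 in rescue. Fitting 3 levels to the KO bins divided it at 20 and 65 Mb and took away 63.0% of the spread between bins, the highest share of the 19 autosomes in KO. Over the 14 autosomes other than 1, 3, 8, 11 and 15 that share was 14.3% to 59.9%, with a median of 29.6%. Any 3-level fit takes away some of the spread, and the gap to the next autosome was small. In rescue the share on chromosome 8 was 44.3%, at rank 6 of the 19. Chromosome 15, although lower nearly throughout, had 55.7% in KO (rank 3) and 65.9% in rescue (rank 2). In rescue its share was thus above that of chromosome 8. The share is relative to a chromosome's own spread, and the SD of the rescue bins was 0.08 on chromosome 15 and 0.14 on chromosome 8. Chromosome 15 also has fewer bins, 18 against 24. Whether its level differed along its length was not tested.

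The 3 levels of chromosome 8 were as follows. The 62 genes of 0 to 20 Mb had shifts of 0.17 and 0.16 in the KO libraries and 0.18 and 0.21 in rescue. The 132 genes of 20 to 65 Mb had -0.14 and -0.15 in KO, and -0.08 and 0.05 in rescue. The 453 genes of 65 to 130 Mb had 0.14 and 0.17 in KO, and 0.13 and 0.12 in rescue. The outer stretches were above wild type in all 4 libraries, while the middle one was below wild type in both KO libraries and on either side of 0 in rescue. In the last stretch 11 of 13 bins were above 0 in KO and 12 in rescue, and 34.7% of genes lay below 0 in KO and 30.9% in rescue. In the middle stretch 7 of 8 bins were below 0 in KO and 5 in rescue.

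**Figure D4:**
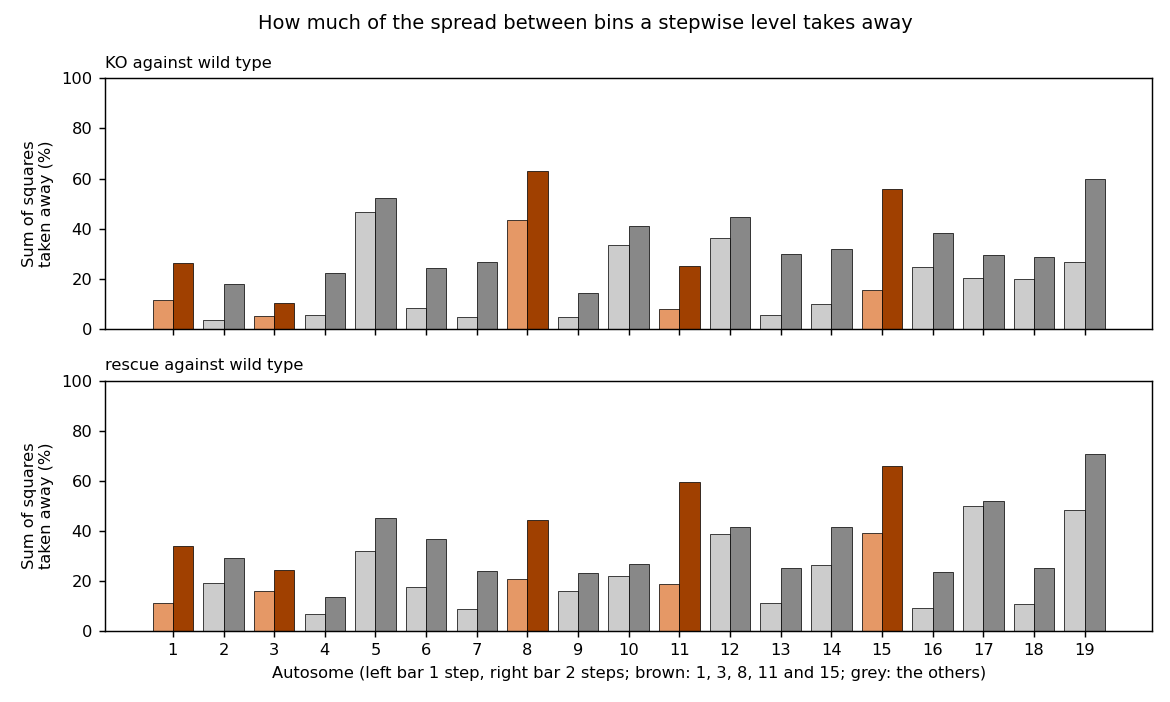
Share (percent) of the weighted sum of squares between bins that fitting 1 step (left bar) or 2 steps (right bar) takes away on each autosome, for KO (top) and rescue (bottom); chromosomes 1, 3, 8, 11 and 15 are brown and the others grey. Chromosome 8 has the highest 2-step share in KO (63.0%) and chromosome 19 in rescue (70.5%), while chromosome 3 has the lowest in KO (10.2%).

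With 1 step allowed, chromosome 8 was divided at 65 Mb in both groups, with a rise of 0.23 in KO and 0.10 in rescue. The step took away 43.5% of the spread in KO and 20.9% in rescue; over the 14 other autosomes the median was 14.9% in KO, with a range of 3.65% to 46.7%, and 18.3% in rescue. With 2 steps the rescue bins were divided at 20 and 45 Mb, so the second boundary lay nearer to the start than in KO. Tmem192, a lysosomal membrane protein whose promoter is printed above, was at 20.7 and 29.6 CPM in wild type, 36.2 and 38.4 in KO, and 35.6 and 33.1 in rescue. Tma16, a ribosome biogenesis factor just after the step, was at 15.9 and 13.6 CPM in wild type, 22 and 18.6 in KO, and 21.4 and 18.7 in rescue. In both genes the KO and rescue libraries lay above wild type, so the genes that flank the fitted position did not themselves differ in direction; Tmem192 rose by 0.43 in KO (SE 0.14, adjusted p = 0.027, edgeR), and its adjusted p was 0.080 to 0.26 without either KO library or wild-type library 1. The position of 65 Mb did not move when any 1 of the wild-type or KO libraries was left out.

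The lowest bin of chromosome 8, 35 to 40 Mb with 8 genes, had -0.52 and -0.56 in the KO libraries and -0.41 and -0.06 in the rescue libraries. The KO libraries were low, and the 2 rescue libraries stood apart from each other. Tusc3, a subunit of the oligosaccharyltransferase complex, was at 147 and 153 CPM in wild type, 114 and 116 in KO, and 118 and 124 in rescue. It fell by 0.51 in KO (SE 0.08, adjusted p = 0.000392, edgeR). Eri1, a histone mRNA exonuclease, was at 94.4 and 101 CPM in wild type, 125 and 118 in KO, and 115 and 106 in rescue.

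The highest bin of chromosome 8 in KO, 85 to 90 Mb with 29 genes, had 0.27 and 0.28 in the KO libraries and 0.29 and 0.13 in rescue. It holds Neto2, an auxiliary subunit of kainate receptors, at 139 and 140 CPM in wild type, 414 and 379 in KO, and 364 and 318 in rescue. Neto2 rose by 1.38 in KO (SE 0.09, adjusted p = 1.22e-06, edgeR). Vps35, a core subunit of the retromer, rose by 0.30 (SE 0.08, adjusted p = 0.0094, edgeR), close to the shift of its bin; the call was lost without either KO library or wild-type library 1 (0.051 to 0.11). Nod2, an intracellular sensor of bacterial peptidoglycan, went against the bin: it was at 7.54 and 8.76 CPM in wild type, 0.17 and 0.36 in KO, and 0.13 and 0.92 in rescue. Its KO difference was -5.06 (SE 0.48, adjusted p = 1.32e-05, edgeR).

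The median of chromosome 11 lay slightly above 0, and the stretch from 55 to 75 Mb lay higher than the rest. Over its 940 kept genes, the shift was 0.08 and 0.08 in the KO libraries and 0.06 and 0.04 in rescue, all above wild type (mean 0.08 ± 0.0008 and 0.05 ± 0.01, SD, n = 2 each). In KO 17 of its 23 bins were above 0 and in rescue 16. Fitting 3 levels gave the same boundaries in both groups, 55 and 75 Mb, and took away 25.1% of the spread in KO and 59.5% in rescue. The 201 genes of those 4 bins had 0.16 and 0.21 in the KO libraries and 0.15 and 0.20 in rescue. The 220 genes before had 0.03 and 0.03 in KO and -0.01 and 0.01 in rescue, and the 519 genes after had 0.07 and 0.08 in KO and 0.04 and 0.01 in rescue.

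All 4 bins from 55 to 75 Mb had both libraries of each group above both wild-type libraries. Of all bins, 33.5% did so in KO and 30.8% in rescue. In them 85 genes passed edgeR's test as higher in KO and 33 as lower (24.9% and 23.6% of all kept genes), and 54 and 9 in rescue (10.9% and 11.8% of all). The stretch was chosen for its shift in these contrasts, so nothing is read from those counts. The highest was 55 to 60 Mb with 40 genes, at 0.26 and 0.26 in KO and 0.21 and 0.25 in rescue. Its most abundant genes were not among those that changed in KO: Mprip, a regulator of myosin phosphatase, was at 608 and 602 CPM in wild type, 587 and 581 in KO, and 628 and 635 in rescue, and Sparc, a secreted matrix protein, was at 358 and 347, 377 and 360, and 417 and 484. Sparc rose by 0.30 in rescue against wild type (SE 0.09, adjusted p = 0.044, edgeR), and lost the call without any 1 library other than rescue library 1 (0.074 to 0.24). Zfp867, a zinc finger gene of the same bin, fell by 0.62 in KO (SE 0.19, adjusted p = 0.017, edgeR), and lost the call without either wild-type library or KO library 2 (0.067 to 0.12). Slc36a1, a lysosomal amino acid transporter and the first established gene after the 55 Mb boundary, was at 23.5 and 25.3 CPM in wild type, 40.2 and 44.7 in KO, and 29.9 and 23.0 in rescue, and rose by 0.66 in KO (SE 0.13, adjusted p = 0.0013, edgeR). Anxa6, an annexin just before it, did not pass in KO (-0.10, SE 0.10, adjusted p = 0.44, edgeR). With 1 step allowed, the KO bins rose by 0.07 at 55 Mb, but without wild-type library 1, wild-type library 2 or KO library 2 the step was downward, at -0.09, -0.07 or -0.09, and placed at 105, 95 or 110 Mb.

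The lowest bin of chromosome 11, 110 to 115 Mb with 15 genes, lay below its neighbours. It had -0.28 and -0.37 in the KO libraries and -0.25 and -0.15 in rescue. It holds Sox9, a transcription factor of pancreatic duct cells, at 289 and 239 CPM in wild type, 172 and 149 in KO, and 216 and 269 in rescue. Sox9 fell by 0.84 in KO (SE 0.13, adjusted p = 0.000352) and rose by 0.66 in rescue against KO (SE 0.13, adjusted p = 0.010, both edgeR; 0.11 for the latter without KO library 2). Map2k6, a kinase that activates p38, was at 113 and 102 CPM in wild type, 55.6 and 59.1 in KO, and 57.6 and 70.3 in rescue, and fell by 1.04 in KO (SE 0.11, adjusted p = 3.03e-05, edgeR). Slc39a11, a zinc transporter, rose by 0.72 in KO (SE 0.16, adjusted p = 0.0032, edgeR).

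Chromosome 1 was slightly lower over most of its length, just under the 80% set for a whole shift. Over its 651 kept genes the shift was -0.09 and -0.11 in the KO libraries and -0.05 and -0.05 in rescue, all below wild type (mean -0.10 ± 0.02 and -0.05 ± 0.0003, SD, n = 2 each). In each group 26 of its 33 bins were below 0 (78.8%). In KO 7 of the 33 bins were shifted down by 0.2 or more and 1 up, beside 15.7% and 7.29% of all bins. In rescue 2 were shifted down and none up, beside 7.97% and 3.64% of all bins. The fit of 3 levels to KO set apart 130 to 160 Mb, whose 117 genes had -0.22 and -0.28 in the KO libraries and -0.13 and -0.11 in rescue. The 355 genes before had -0.04 and -0.09 in KO, and the 174 genes after -0.10 and -0.09. That fit took away 26.4% of the spread, below the median of the 14 other autosomes.

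The lowest bin of chromosome 1, 80 to 85 Mb with 10 genes, had -0.41 and -0.57 in the KO libraries and -0.22 and -0.16 in rescue. Its 2 most abundant genes moved little: Trip12, a ubiquitin ligase, fell by 0.28 in KO (SE 0.09, adjusted p = 0.019, edgeR; 0.057 to 0.14 without any 1 of the wild-type or KO libraries), and Agfg1, an adaptor of vesicle transport, was at 207 and 219 CPM in wild type, 244 and 246 in KO, and 212 and 196 in rescue. Col4a4, a chain of basement membrane collagen, was at 0.79 and 0.85 CPM in wild type, 1.91 and 1.2 in KO, and 4.08 and 12.5 in rescue. With 1 step allowed, the KO bins of chromosome 1 were divided at 80 Mb, which took away 11.6% of the spread, and the rescue bins at 105 Mb. The KO position was 130 Mb without wild-type library 2 or with a mean CPM of at least 5, and 87.5 Mb with bins of 2.5 Mb. Serpine2, a secreted protease inhibitor just before 80 Mb, was at 27.8 and 30.6 CPM in wild type, 5.04 and 3.72 in KO, and 6.13 and 9.34 in rescue, and fell by 2.83 in KO (SE 0.20, adjusted p = 2.04e-06, edgeR). Cul3, the scaffold of a ubiquitin ligase just after it and inside the lowest bin, did not pass in KO (-0.13, SE 0.08, adjusted p = 0.22, edgeR). A bin with a higher gene count, 130 to 135 Mb with 43 genes, had -0.42 and -0.43 in KO and -0.29 and -0.19 in rescue, with 33 genes below 0 in KO and 35 in rescue. The highest bin in KO, 120 to 125 Mb, rested on 5 genes and had 0.22 and 0.25 in KO and 0.13 and -0.01 in rescue. Within it Insig2, which retains the sterol sensor in the endoplasmic reticulum, fell by 0.96 in KO (SE 0.11, adjusted p = 4.22e-05, edgeR), and Dbi, an acyl-CoA-binding protein, was at 81.9 and 86.5 CPM in wild type, 104 and 112 in KO, and 98.3 and 79.3 in rescue.

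Rescue against KO was not itself used to single out chromosomes, but it is not independent of that choice. It shares the KO libraries with the KO shifts and the rescue libraries with the rescue shifts. Where a chromosome was singled out with both groups on the same side, a small difference was favoured in advance. Rescue against KO was tested with limma on the per-library medians of all 439 bins, with Benjamini-Hochberg adjustment over them. In that test 15 bins were higher in rescue (3.42%) and 6 lower (1.37%), and 77 and 35 had an unadjusted p under 0.05. With either wild-type library left out, limma called 0 bins (56 higher and 36 lower at an unadjusted p under 0.05 without wild-type library 1, and 41 and 25 without library 2). Without rescue library 1 there were 47 higher and 24 lower, without rescue library 2 there were 3 and 1, without KO library 2 there were 2 and 1, and without KO library 1 there were 12 and 2. The interval of the difference held 0 in 327 bins, and the median distance from the estimate to either end of the 95% interval was 0.11.

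On chromosome 15 no bin was called by limma; the differences ran from -0.13 to 0.24. For the chromosome as a whole rescue minus KO was -0.004, with a 95% interval of -0.07 to 0.06 (adjusted p = 0.91, limma over 19 autosomes). The same difference was -0.001 on chromosome 3 (-0.10 to 0.10), 0.003 on chromosome 8 (-0.02 to 0.03), -0.03 on chromosome 11 (-0.05 to -0.003) and 0.06 on chromosome 1 (0.03 to 0.08, adjusted p = 0.055). Limma called 0 of the 19 autosomes, and 1 higher and 1 lower had an unadjusted p under 0.05. On each of the 5 chromosomes the interval did not reach the size of the KO shift. These chromosomes were singled out by the KO and rescue shifts, so that is a description. A p that misses the threshold does not show that rescue and KO were alike.

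Single bins of these chromosomes did differ between rescue and KO. The 80 to 85 Mb bin of chromosome 1 was higher in rescue by 0.30 (95% interval 0.17 to 0.43, adjusted p = 0.029, limma), the 120 to 125 Mb bin of chromosome 3 by 0.32 (0.20 to 0.45, adjusted p = 0.019, limma) and the 40 to 45 Mb bin of chromosome 8 by 0.26 (0.16 to 0.36, adjusted p = 0.019, limma). Each of these lay below 0 in KO, and in rescue between that value and 0. Those of chromosomes 1 and 3 were the lowest bins of their chromosomes in KO. The same KO libraries enter this difference, so a move toward 0 was favoured there in advance. Lower in rescue were the 60 to 65 Mb bin of chromosome 3, with a difference of -0.20 (-0.30 to -0.09, adjusted p = 0.047, limma), the 125 to 130 Mb bin of chromosome 8, at -0.21 (-0.31 to -0.12, adjusted p = 0.029, limma) and the 5 to 10 Mb bin of chromosome 11, at -0.18 (-0.27 to -0.09, adjusted p = 0.042, limma). These 3 lay above 0 in KO and below 0 in rescue.

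**Figure D5:**
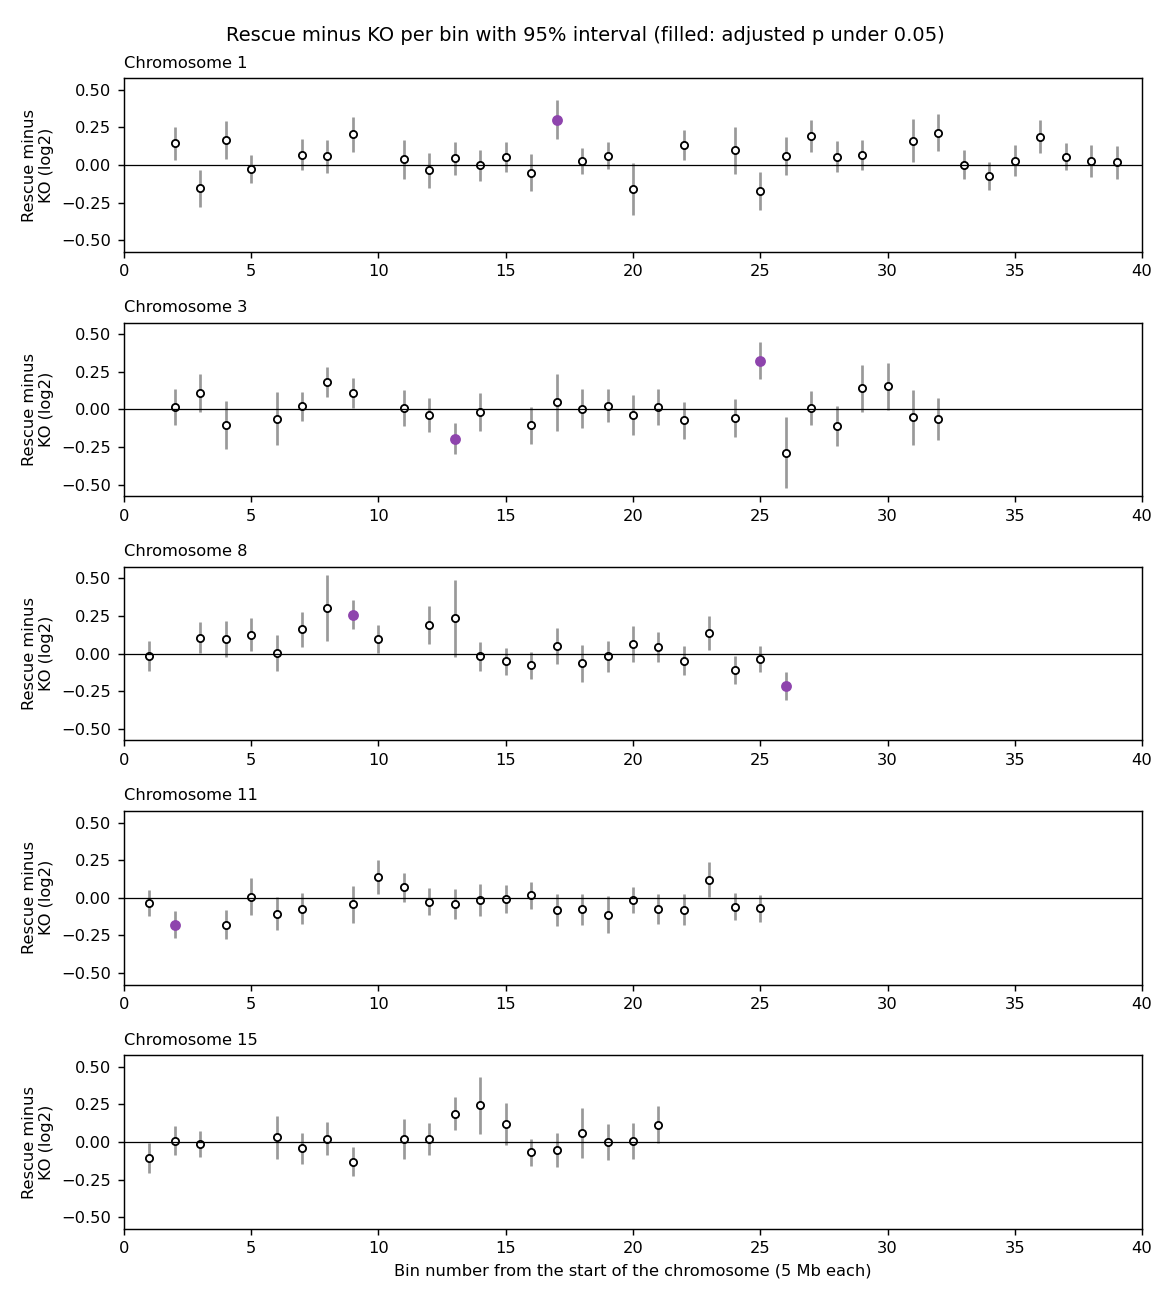
Rescue minus KO (log2) of each bin of chromosomes 1, 3, 8, 11 and 15 against its number from the chromosome's start, with the 95% interval of limma's fit over all 439 bins; filled points passed an adjusted p under 0.05. On chromosome 15 no bin passed, and 1 bin on chromosome 1, 2 on chromosome 3, 2 on chromosome 8 and 1 on chromosome 11 did.

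Gene by gene, edgeR called 39 genes higher and 36 lower in rescue against KO on chromosome 15 (8.57% and 7.91%), beside 9.07% and 6.37% of all kept genes. On chromosome 3 the counts were 61 higher and 30 lower (10.8% and 5.30%), and on chromosome 8 they were 65 and 55 (10.0% and 8.50%). On chromosome 11 they were 70 and 63 (7.45% and 6.70%), and on chromosome 1 they were 73 and 32 (11.2% and 4.92%). These shares lay near the background in each case. Over all genes tested, edgeR's counts of 1030 higher and 726 lower ranged from 139 and 64 without KO library 2 to 1849 and 1596 without rescue library 1.

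The bins with the most extreme KO shifts lay on several chromosomes. They were picked by their KO shifts, and the same KO libraries enter rescue minus KO, so a difference toward 0 was favoured in advance. Their differences between rescue and KO are therefore given as descriptions. The lowest bin of all in KO, 50 to 55 Mb on chromosome 19 with 10 genes, had -0.66 and -0.63 in the KO libraries and -0.32 and -0.07 in rescue, and was higher in rescue than in KO by 0.45 (0.29 to 0.62, adjusted p = 0.019, limma). Xpnpep1, an aminopeptidase, fell by 0.72 there in KO (SE 0.10, adjusted p = 0.000143, edgeR), and Smc3, a cohesin subunit, did not pass (0.10, SE 0.08, adjusted p = 0.34, edgeR). The next lowest was the 65 to 70 Mb bin of chromosome 15 described above, and in rescue the lowest was its neighbour of 70 to 75 Mb. The highest in KO, 5 to 10 Mb on chromosome 16 with 13 genes, had 0.43 and 0.46 in KO and 0.12 and 0.03 in rescue, and was lower in rescue, with a difference from KO of -0.37 (-0.47 to -0.26, adjusted p = 0.0073, limma). Of its most abundant genes, Carhsp1, an RNA-binding phosphoprotein, fell by 0.73 in KO (SE 0.09, adjusted p = 0.000103, edgeR), and Usp7, a deubiquitinase of the p53 pathway, did not pass (-0.16, SE 0.08, adjusted p = 0.12, edgeR). The next highest, 40 to 45 Mb on chromosome 6, had 0.33 and 0.26 in KO and 0.26 and 0.24 in rescue, and its most abundant genes, the guanine nucleotide exchange factor Arhgef5 and the focal adhesion protein Zyx, did not pass in KO (adjusted p = 0.25 and 0.32, edgeR).

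A list of 30 genes often altered in pancreatic cancer was placed on the bins, and 28 lay in eligible ones. In edgeR's test 5 of the 28 were higher and 13 lower in KO, beside 24.9% and 23.6% of all kept genes. In rescue 3 were higher and 9 lower, beside 10.9% and 11.8%. Beside 9.07% and 6.37%, 4 were higher and 0 lower in rescue against KO (5 and 2 at an unadjusted p under 0.05, and 2 and 0 by DESeq2). Their median shift was -0.22 in KO and -0.08 in rescue, against 0 for all kept genes by construction. In KO 19 of the 28 lay on the same side of 0 as their bin. Each gene is part of its bin's median and no share over all kept genes is given, so nothing is read from that count. Egfr, a growth factor receptor on chromosome 11, was at 115 and 113 CPM in wild type, 27.0 and 29.2 in KO, and 41.3 and 51.4 in rescue, and fell by 2.15 in KO (SE 0.11, adjusted p = 2.90e-07, edgeR). Ccne1, cyclin E1 on chromosome 7, was at 6.64 and 8.95 CPM in wild type, 27.6 and 25.7 in KO, and 20.8 and 16.2 in rescue, and rose by 1.64 in KO (SE 0.17, adjusted p = 2.69e-05, edgeR).

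Neighbouring bins resembled each other more in the group comparisons than between wild-type libraries. Over 379 pairs of adjacent bins, r was 0.20 for the KO shifts, 0.35 for the rescue shifts and -0.01 for wild-type library 2 against 1. It was also 0.21 between the 2 KO libraries and 0.23 between the 2 rescue libraries. Adjacent bins share libraries and regional base composition, so these are descriptions. The shifts also varied with gene density: the median KO shift was -0.03 in bins of 5 to 9 genes, -0.07 in bins of 10 to 19, -0.001 in bins of 20 to 39 and 0.05 in bins of 40 to 113. Across the 439 bins the KO shift had r = 0.22 with the number of kept genes, 0.20 with the median GC content of their longest transcripts and -0.13 with their listed length, and the part of these in the shifts was not tested. Restricted to bins with at least 20 kept genes, chromosome 15 had -0.20 in KO and -0.22 in rescue, chromosome 3 had -0.13 and -0.14, and chromosome 8 had 0.14 and 0.12. Those bins held 336 of the 455 kept genes of chromosome 15, 333 of 566 on chromosome 3 and 526 of 647 on chromosome 8. Values near those of the whole chromosome were thus favoured in advance.

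The shift of chromosome 15 was present at every level of expression. When all kept genes were divided into 3 equal classes of mean CPM, the chromosome's 116 genes of the lowest class had -0.09 in KO and -0.17 in rescue, the 131 of the middle class -0.19 and -0.19, and the 208 of the highest class -0.25 and -0.24. All autosomes together had 0.03, 0.05 and -0.07 in those classes in KO, and 0.02, 0.02 and -0.03 in rescue. On chromosome 3 the values were -0.22, -0.08 and -0.17 in KO, and on chromosome 8 they were 0.09, 0.17 and 0.08. On chromosome 11 they were 0.12, 0.11 and 0.04 in KO. On these 4 chromosomes the direction was the same in each class in both groups. Chromosome 1 had -0.04, -0.04 and -0.20 in KO, and 0.01, -0.03 and -0.09 in rescue. It lay lowest in the class of highest expression. In rescue its lowest class was above 0, where all autosomes were above 0 too. In every class of both groups chromosome 1 lay below the value of all autosomes.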

How the data were processed

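The labels describe 6 RNA-seq libraries of KP2 cells in 3 groups of 2. The submitters' processing notes name STAR 2.0.4b for alignment software, featureCounts 1.45 with Subread, bcl2fastq and the build GRCm38. Strand setting and annotation release: not given in the sources used here. The deposited files, per the file headers, hold whole-number counts, CPM and RPKM per gene for each library, 41388 genes each. The deposited CPM equalled the counts scaled to each library total; RPKM was not used for the bins.

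From the deposited CPM, the log2 ratio of group means (with 0.1 added) was taken per gene, and the median per bin or chromosome minus that of all kept genes was the shift. Per library, the ratio is to the mean log2 of the 2 wild-type libraries. Steps were least-squares fits of 1, 2 or 3 levels, weighted by genes per bin, with at least 3 bins per level. Counts were tested per gene with edgeR 4.0.16 (TMM, filterByExpr, quasi-likelihood, R 4.3.3) over all 6 libraries, which tested 10912 of the 10915 kept genes, and bins with limma 3.58.1 in which each group has 1 mean. An adjusted p under 0.05 was called. Fold changes of single genes are edgeR's and are not relative to the all-gene median. DESeq2 1.42.0, other bin sizes, filters, the replicate number as a block and leaving out each library were alternatives. The edgeR fit of KO against wild type and the limma fit of rescue against KO were tested on simulated data. The DESeq2 fit and the fits of steps were not. Gene symbols matched GENCODE M21 for 40340 of 41388 genes. Antisense and overlapping genes cannot be told apart without a stated strand setting.

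Named genes were Irak4 and Has2; in the lowest and highest bin of each described chromosome, and in the 2 lowest and 2 highest bins of all, the 2 most abundant genes and the 1 farthest against the bin; the genes beside a 1-step boundary; and members of the pancreatic cancer list. The bins and the genes farthest against them were picked by the KO contrast. The KO p-values of those genes are therefore descriptions. Some items are not reported here. The members, lists and the 5 chromosomes were chosen with earlier results of these data known. The labels do not say that libraries of a group came from separate cultures, so a p-value reflects only how much these libraries scatter, possibly for technical reasons; with 2 against 2 an exact permutation test cannot go below 0.33.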

Additional observations from a re-analysis of the deposited data

How the results depend on the processing

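Of 290 alternative values for chromosomes, bins, steps and gene counts, 209 stayed on the same side and within the spread or 1.5 times the value, 78 moved and 3 reversed; the cause was not tested beyond what each alternative changes. No shift of chromosomes 1, 3, 8, 11 or 15 changed sign in any of the alternatives run. The KO shift of chromosome 8 was 0.137 in bins with 20 or more kept genes, and that of chromosome 11 was 0.0863 and 0.0729 with a mean CPM of at least 1 and 5, 0.0755 with 1 CPM added, 0.0830 without clustered gene families and 0.0842 in the dense bins. The rescue shift of chromosome 1 was -0.0487 with a mean CPM of at least 5, -0.0490 from edgeR's fold changes and -0.0516 without the families, and that of chromosome 8 was 0.1231 in the dense bins. Leaving out each library in turn gave 0.0994 to 0.1212 for chromosome 8 and 0.0742 to 0.0825 for chromosome 11 in KO, and -0.0474 to -0.0382 for chromosome 1 and 0.1010 to 0.1182 for chromosome 8 in rescue. Genes after Irak4 ranged from -0.2637 to -0.1859 in KO and from -0.2097 to -0.1547 in rescue. The 1-step size on chromosome 3 was -0.0816 with bins of 2.5 Mb and -0.1427 to -0.0958 with a library left out; it was 0.1983 to 0.2449 on chromosome 8, -0.1179 to -0.0531 on chromosome 15, and -0.0881 to 0.1069 on chromosome 11, where it reversed to -0.0872 without wild-type library 1, -0.0685 without wild-type library 2 and -0.0881 without KO library 2.

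Bins shifted in KO numbered 78 higher and 135 lower with bins of 2.5 Mb, and 7 and 26 with bins of 10 Mb, which have fewer bins. In rescue there were 32 and 67 with 2.5 Mb, 2 and 10 with 10 Mb, and 21 lower with at least 10 genes per bin. Bins called in rescue against KO (limma) were 7 higher with a mean CPM of at least 1, 7 higher and 3 lower with at least 5, 27 higher without the families, 39 and 11 with 2.5 Mb, 2 and 1 with 10 Mb, and 6 and 2 from position 2.5 Mb. With a library left out they ranged from 0 to 47 higher and 0 to 24 lower. Gene calls with a library left out ranged from 1688 to 3297 higher in KO, 417 to 1699 higher and 691 to 1953 lower in rescue, and 139 to 1849 higher and 64 to 1596 lower in rescue against KO; DESeq2 called 751 higher in rescue and 378 lower in rescue against KO. The lowest of these ranges came without wild-type library 1 in KO and in rescue, where leaving out wild-type library 2 also gave 552 higher and 776 lower. Rescue against KO moved by over 1.5 times with any 1 library left out, and was lowest without KO library 2 and highest without rescue library 1. A group left with 1 library is assumed to vary like the others. Of 2146 alternative values for the named genes, 187 lost a call and 57 gained one. None changed sign where the main or the alternative fit had called the gene. Sign changes with a call in neither fit did occur and were counted as the same. Trps1 in KO, for example, ran from -0.15 to 0.19 with a library left out.

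The replicate numbers did not pair the libraries: the correlation of deviations from the group means was 0.06 for wild type with KO, -0.19 for wild type with rescue and -0.21 for KO with rescue. With the replicate number as a block, edgeR called 429 genes lower in rescue against KO in place of 726, and limma called 17 bins higher and 4 lower. With the rescue numbers crossed, an alternative chosen after seeing the data, there were 1135 genes lower, and 31 bins higher and 13 lower. Restricting to dense bins and testing whole chromosomes were also chosen after seeing the data. With 5 to 113 genes and 2 libraries a group, differences of single bins within about 0.11 could not be told from 0.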

Other observations

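Segmental shifts of similar size were also present on autosomes other than 1, 3, 8, 11 and 15. Chromosome 5 was divided at 105 Mb by the 1-step fit to KO, which took away 46.7% of the spread between bins, the highest 1-step share of the 19; its 334 genes before had a median shift of -0.05 and -0.06 in the KO libraries, and its 396 genes after 0.15 and 0.09. On chromosome 10 the 77 genes of 0 to 30 Mb had -0.15 and -0.20 in the KO libraries and -0.11 and -0.001 in rescue. On chromosome 19 the 46 genes of 15 to 30 Mb had -0.37 and -0.43 in KO and -0.24 and -0.21 in rescue. On chromosome 17 the 204 genes of 5 to 30 Mb had -0.06 and -0.05 in rescue, and the 344 genes after them 0.05 and 0.05. The 344 kept genes of chromosome X, which no bin includes, had -0.04 and -0.05 in the KO libraries and -0.07 and -0.06 in rescue. The 85 to 90 Mb bin of chromosome 7, with 9 genes, had -0.52 and -0.54 in KO and -0.07 and -0.05 in rescue, and had the smallest adjusted p of all bins in rescue against KO (0.47 higher, 95% interval 0.38 to 0.56, adjusted p = 0.00097, limma).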
